A study of Mus musculus with 5 samples.

Results

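Receptors and ligands of the TNF-family costimulators, with ICOS and its ligand, were followed through the cell classes of tumor-draining lymph nodes (TDLNs) and tumors. The 10 genes were taken by name from the gene expression rows of 5 single-cell reactions. They were the receptors Tnfrsf4 (OX40), Tnfrsf9 (4-1BB), Tnfrsf18 (GITR), Cd27, and Icos, and the ligands Tnfsf4 (OX40 ligand), Tnfsf8 (CD30 ligand), Tnfsf9 (4-1BB ligand), Cd70 (the ligand of CD27), and Icosl (ICOS ligand). They are 10 of the 32285 genes listed for TDLNs and 10 of the 33696 listed for tumors, and all 10 had at least 1 UMI in every reaction. The 2 remaining partners, Tnfrsf8 (CD30) and Tnfsf18 (GITR ligand), were read alongside.

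Male WT C57BL/6J mice aged 8 to 10 weeks carried s.c. TRAMP-C2 prostate or MC38 colon carcinoma cells, both transplanted mouse lines. On days 3, 6, and 9 each mouse was given either isotype antibody or dual checkpoint inhibition (CPI, anti-CTLA4 with anti-PD-1), and on day 12 the JAK1 inhibitor ABT-317 (20 mg/kg) or its vehicle, DPBS. The paper's methods give harvest as a day after implantation. Its MC38 figure instead sets day 0 when tumors reached the volume for enrollment. Tissue was taken on day 15, from the inguinal nodes of TRAMP-C2 mice (3 reactions, all cells, unsorted) and from MC38 tumors (2 reactions, sorted CD45+ and CD45- cells mixed 1 to 1). Each reaction pooled all treatments, which hashtag antibodies mark. In the deposited key each MC38 reaction has 1 hashtag per treatment. The paper states 3 tumors per group for the MC38 scRNA-Seq, and 3 mice per group in 2 experiments for the TDLNs. How many mice a hashtag stands for is not given in the sources used here. In MC38 tumors the 4 treatments were isotype, CPI, CPI + ABT-317, and isotype + ABT-317. Antibody counts of the TDLN matrices were 0 throughout, so treatments were not separated in TDLNs.

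A naive T cell needs costimulation beside its antigen receptor, and CD28 supplies the first such signal. The TNF receptor family members used here act later: OX40, 4-1BB, and GITR appear on activated T cells and are kept on regulatory T cells, CD27 is already present on naive T cells, and all of them bind TRAF adaptors that feed NF-kB and survival proteins. ICOS is a CD28 relative that signals through PI3K and is a feature of follicular helper and effector regulatory T cells. The ligands are displayed mostly by activated antigen-presenting cells, and several can also be made by T cells. In tumors, agonist antibodies to these receptors have been used as partners for checkpoint antibodies.

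All 5 receptors have an antibody in the tumor panel, so RNA and surface protein could be set side by side. Each antibody carries a 15-base tag that is sequenced and counted, and the tags in the deposited feature list are shown to identify those readouts.
CD134 antibody (OX40, Tnfrsf4): ctcacctacctatgg
CD137 antibody (4-1BB, Tnfrsf9): tccctgtatagatga
CD357 antibody (GITR, Tnfrsf18): ggcactctgtaacat
CD27 antibody (Cd27): caaggtatgtcactg
CD278 antibody (ICOS, Icos): cgcgcacccattaaa

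Several of the genes are neighbors in the genome. In GENCODE vM21 (GRCm38), Tnfrsf4 lies on chromosome 4 from 156013843 to 156016612 and Tnfrsf18 from 156026164 to 156028895, both on the plus strand and 9551 bases apart. Tnfrsf9 lies on the same chromosome from 150914562 to 150946102. Tnfsf9 (chromosome 17, 57105325 to 57107757, plus strand) and Cd70 (57145997 to 57149777, minus strand) are 38239 bases apart. Tnfsf4 lies on chromosome 1 from 161395409 to 161418410, which is 76244 bases from Tnfsf18. Icos is on chromosome 1 (60977927 to 61000320), Cd27 on 6 (125232622 to 125237010), Tnfsf8 on 4 (63831308 to 63861347), and Icosl on 10 (78069302 to 78083913).

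Because Tnfrsf4, Tnfrsf9, and Tnfrsf18 were called together in several comparisons, the 250 bases before their RefSeq start (GRCm38.p6, plus strand) are shown, with any match to the STAT motif TTCNNNGAA in capitals.
Tnfrsf4, chr4:156013445-156013694: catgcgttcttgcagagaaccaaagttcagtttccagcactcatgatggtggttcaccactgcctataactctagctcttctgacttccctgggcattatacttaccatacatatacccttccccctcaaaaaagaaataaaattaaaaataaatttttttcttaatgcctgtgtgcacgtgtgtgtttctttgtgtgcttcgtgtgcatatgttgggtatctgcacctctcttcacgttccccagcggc
Tnfrsf9, chr4:150919905-150920154: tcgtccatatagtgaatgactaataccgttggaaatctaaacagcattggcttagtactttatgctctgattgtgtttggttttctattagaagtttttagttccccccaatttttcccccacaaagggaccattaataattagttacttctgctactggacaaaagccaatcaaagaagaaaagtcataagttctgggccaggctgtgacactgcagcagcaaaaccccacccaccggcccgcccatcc
Tnfrsf18, chr4:156026072-156026321: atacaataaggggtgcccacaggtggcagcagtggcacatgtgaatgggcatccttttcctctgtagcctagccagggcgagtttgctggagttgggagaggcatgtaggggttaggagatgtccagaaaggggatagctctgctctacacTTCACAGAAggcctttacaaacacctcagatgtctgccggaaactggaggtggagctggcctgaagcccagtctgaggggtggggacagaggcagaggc
Tnfrsf18 alone of these 3 held a match, TTCACAGAA, 90 bases before the RefSeq start, and 7.02% of the 32851 RefSeq windows of this length held 1 on either strand. None of the 3 held the AP-1 motif TGANTCA, which 6.75% of windows held, or the NF-kB motif, which 7.25% held. RefSeq windows were found for 6 of the 10 genes, and of the other 3 matched (Cd27, Tnfsf8, Icosl) only Icosl held a motif, 1 NF-kB match 101 bases before the start. Windows were not found for Icos, Tnfsf4, Tnfsf9, and Cd70. A match is a description of the letters and says nothing of factor binding. The RefSeq and GENCODE starts differ, so the Tnfrsf9 window and most of the Tnfrsf18 window, with its match, lie inside the GENCODE genes given above.

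The TDLN reactions held 62575, 56511, and 7050 barcodes with 18055617 to 127052825 gene UMIs, and the MC38 reactions held 37774 and 27582 barcodes with 435031691 and 377184807 gene UMIs. After the filters of the study's methods (at least 200 and fewer than 2500 genes, under 10% mitochondrial counts), 92.5% to 99.6% of TDLN barcodes and 40.3% and 35.1% of MC38 barcodes remained. The paper shows far fewer TDLN cells in total, so the set used here is not the paper's. TDLN reaction 1 held more barcodes than the cells loaded per reaction, so not every barcode can be a separate loaded cell. Any pair of reactions shared 3.84% to 8.70% of the barcodes of the smaller one. TDLN reaction 3 stood apart in size, and of its T cell classes only the CD8 naive-like one reached the 20 cells needed for a sum, so the other TDLN T cell values below rest on reactions 1 and 2. Most TDLN barcodes (52880, 45337, and 6002 by reaction) lay in clusters that stayed unnamed and carried T cell and B cell markers together, with 8-gene lists summing to 2344 to 2784 CPM (T) and 2234 to 2932 CPM (B). The TDLN plasma cell-like class carried the T list at 2176 to 2624 CPM, so its receptor values are not read as those of plasma cells. Levels are in CPM, the UMIs of a gene in a class and reaction divided by all gene UMIs there and multiplied by 1e6, and any interval covers counting error only. CPM values of different genes are not compared with each other. Nothing in the labels says that the reactions hold different mice, so p-values measure the spread between reactions, which may be technical.

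In TDLNs the receptors separated a small Areg- and Il10-expressing T cell sub-cluster from naive-like T cells. This sub-cluster (62 and 189 cells in reactions 1 and 2) was led by Areg, Itgb8, S100a4, C2cd4b, Il10, and Il23r. All 6 regulatory T cell (Treg) markers of the marker list were raised in it. It did not get the Treg name because the naming rule asks for more Cd4 than Cd8a. Over all reactions together it held them at 114 and 116 CPM, nearly level. The Treg list stood at a mean log2 ratio of 3.30 to the other T-like cells, the cycling list at 2.52, and the Tfh list at 2.24, and Pdcd1 was among its leading genes. Foxp3, the Treg transcription factor, stood at 133 and 132 CPM in it against 7.89 and 9.11 CPM in CD4 naive-like cells. It held Cd4 at 150 and 105 CPM and Cd8a at 145 and 109 CPM, while CD4 naive-like cells held Cd4 at 118 and 116 CPM and Cd8a at 69.7 and 78.7 CPM, so neither is a pure CD4 class. A further sub-cluster, led by Klra7 and Gzma (47 and 164 cells), had the NK list as its highest, at a mean log2 ratio of 3.93 to the other T-like cells against 1.97 for the CD8 effector list. Cd3e had a UMI in 89.4% and 90.2% of its cells, and whether it mixes NK cells and T cells was not tested.

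Tnfrsf4, whose product sustains activated T cells, was at 324 and 429 CPM in the Areg/Il10 sub-cluster (56 and 228 UMIs). CD4 naive-like cells held it at 18.4 and 37.1 CPM, CD8 naive-like cells at 8.56, 12.1, and 58.2 CPM (the last from 4 UMIs), the Klra7/Gzma sub-cluster at 10.8 and 8.47 CPM, and B-like cells at 5.96 and 5.10 CPM. Both Areg/Il10 values lay above every other T cell value. Below it, the CD4 naive-like and CD8 naive-like ranges overlapped.

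Tnfrsf9, an activation-induced receptor, was at 272 and 281 CPM in the Areg/Il10 sub-cluster, against 7.89 and 12.4 CPM in CD4 naive-like cells and 8.56, 11.0, and 29.1 CPM in CD8 naive-like cells. The Klra7/Gzma sub-cluster gave 0 of 47 cells in reaction 1 and 39.0 CPM in reaction 2. Tnfrsf18 was less sharply divided, at 162 and 224 CPM in the Areg/Il10 sub-cluster, 75.9 and 67.8 CPM in the Klra7/Gzma sub-cluster, 40.8 and 57.9 CPM in CD4 naive-like cells, and 51.4, 44.5, and 58.2 CPM in CD8 naive-like cells. The naive-like ranges overlapped each other, and both sub-clusters lay above them.

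Icos had a UMI in 77.4% and 76.7% of the cells of the Areg/Il10 sub-cluster, at a level of 908 and 853 CPM. It was also present in naive-like cells, at 234 and 245 CPM in CD4, 159, 174, and 189 CPM in CD8, and 141 and 195 CPM in the Klra7/Gzma sub-cluster. B-like cells, which should lack it, held it in 0.257% and 1.38% of cells. Cd27, a receptor of resting T cells, was at 185 and 200 CPM in the Areg/Il10 sub-cluster, 118 and 127 CPM in CD4 naive-like cells, and 142, 105, and 174 CPM in CD8 naive-like cells. B-like cells gave 0 and 2.55 CPM for Cd27.

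**Figure D1:**
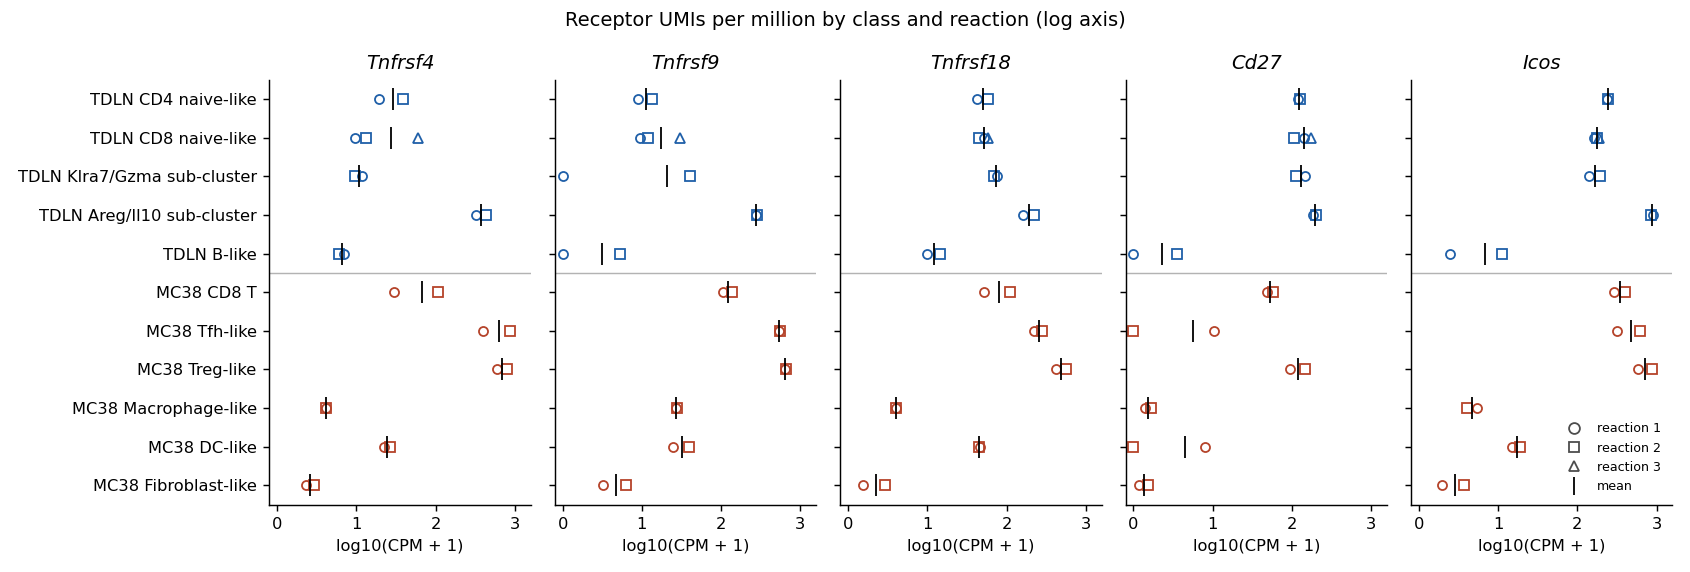
Receptor levels (CPM, log axis) by cell class, 1 point per reaction and a bar at the mean, for TDLN and MC38 classes with at least 20 cells. Tnfrsf4, Tnfrsf9, Tnfrsf18, and Icos are highest in the TDLN Areg/Il10 sub-cluster among TDLN classes, and Cd27 spans 105 to 200 CPM over the TDLN T cell classes.

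Against CD4 naive-like cells, 4 of the 5 receptors and 1 ligand were called higher in the Areg/Il10 sub-cluster at an adjusted p under 0.05 by edgeR's quasi-likelihood test, among 6 of the 10 genes that passed the low-count filter, and 4.86% of all 7279 genes tested were called higher. The log2 differences were 4.52 ± 0.36 (SE) for Tnfrsf9 (adjusted p = 7.78e-09), 3.55 ± 0.30 for Tnfrsf4 (1.11e-08), 1.84 ± 0.24 for Tnfrsf18 (1.44e-05), and 1.73 ± 0.18 for Icos (5.62e-07). The ligand was Tnfsf8, at 2.25 ± 0.34 (9.36e-05). Cd27 differed by 0.52 ± 0.22 (adjusted p = 0.22 by edgeR), and with the reaction as a block by 0.54 (adjusted p = 0.017). The median log2 difference was 2.05 over the 6 genes. Of the 51 listed genes of costimulation, TRAF, NF-kB, and survival, 43 were tested, 11 were higher, and none was lower, among them Il2 (5.11), Maf (3.89), Ctla4 (3.24), and Bcl2l1 (2.95, a survival protein). Ctla4 is on the Treg marker list by which this sub-cluster was chosen, so its call was in part fixed by that choice. When Tregs were instead taken by a marker gate (T cell markers with Foxp3 and no Cd8a or Cd8b1) and set against gated CD4 cells without Foxp3, the calls of Tnfrsf4 (1.56, adjusted p = 0.29), Icos (0.77, 0.91), and Tnfrsf18 (0.81, 1.00) were lost, Tnfsf8 turned to -0.78, and the level of Tnfrsf4 was 181 CPM and that of Icos 451 CPM. Without reaction 2, Tnfsf8 was no longer called (1.37), in a fit with 1 sum per class in which CD8 naive-like sums supply the spread.

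Between the Klra7/Gzma sub-cluster and CD8 naive-like cells, none of the 6 genes tested was called by edgeR (1.32% of 7279 genes were). Their log2 differences ran from -0.50 ± 0.68 for Tnfrsf4 to 1.35 ± 0.53 for Tnfrsf9 (adjusted p = 0.45, and 0.038 with the reaction as a block, where the value was 1.47). Tnfrsf9 turned to -5.13 without reaction 2, since reaction 1 had no UMI for it in this sub-cluster. Of 43 listed pathway genes 1 was higher, Fasl (3.18 ± 0.63, adjusted p = 0.0056), a death ligand of the TNF family.

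The ligands were sparse in TDLN T cells, apart from Tnfsf8. Tnfsf8, the CD30 ligand, was at 69.4 CPM (12 UMIs) and 183 CPM (97 UMIs) in the Areg/Il10 sub-cluster, 23.7 and 29.9 CPM in CD4 naive-like cells, and 39.4, 25.3, and 29.1 CPM in CD8 naive-like cells. Its own receptor gene Tnfrsf8 had 317 UMIs over all TDLN barcodes that passed. Icosl marked B-like cells, with 46.2 and 68.8 CPM there against 0 to 5.08 CPM in reactions 1 and 2 of the T cell classes. Tnfsf9 did not exceed 5.78 CPM, the value of 1 UMI, in any TDLN class with a sum in reactions 1 and 2, and stood at 2.08, 2.14, and 2.31 CPM over all barcodes. Tnfsf4 and Cd70 gave 188 and 43 UMIs in all 3 TDLN reactions together. In the 25 mature dendritic cell (DC)-like cells of TDLN reaction 1, which also carried the B list (2732 CPM) and T list (1905 CPM), Tnfsf9 and Cd70 had 0 UMIs, and Tnfsf4 and Icosl had 1 each.

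In MC38 tumors, T cells were few (716 and 491 T-like cells), and they fell into CD8 T cells (554 and 390), Treg-like cells (82 and 43), and follicular helper (Tfh)-like cells (80 and 58). The CD8 T class joins the sub-clusters with more Cd8a than Cd4 that were not NK-like or B-like, and it is mixed. By the naming rule 1 of its 5 sub-clusters was CD8 effector-like (233 cells), and the other 4 (191, 97, 200, and 223 cells) stayed unnamed. The unnamed one of 223 cells, led by Ifng, had the higher CD8 effector list value, a mean log2 ratio of 0.97 with 5 raised markers. The named one had 0.58 with 4. The former got no name because its leading genes held more of the CD8 exhausted list (Havcr2, Pdcd1) than of the effector list (Ifng). The unnamed one of 191 cells held Cd4 at 75.9 CPM beside Cd8a at 238 CPM. The Tfh-like sub-cluster was named from 5 raised markers of the Tfh list (mean log2 ratio 1.25), but Ccl1, Lgals7, Dthd1, and Cd70 led it and no gene of that list was among its first 10. Foxp3 was at 148 and 230 CPM in Treg-like cells and at 10.5 and 9.10 CPM in CD8 T cells. Transcripts for OX40, 4-1BB, and GITR were higher in both CD4 classes than in CD8 T cells, and the CD30 ligand was highest in Tfh-like cells.

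Tnfrsf4 was at 592 and 790 CPM in Treg-like cells, 392 and 874 CPM in Tfh-like cells, and 28.5 and 105 CPM in CD8 T cells. The Treg-like and Tfh-like ranges overlapped, and both lay above CD8 T cells. Within CD8 T cells the sub-cluster named CD8 effector-like held 0 and 8.99 CPM (0 and 1 UMI). The sub-cluster led by Ifng and Havcr2, which had the higher CD8 effector list value, held 43.3 and 184 CPM.

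Tnfrsf9 was at 633 and 661 CPM in Treg-like cells, 532 and 546 CPM in Tfh-like cells, and 105 and 134 CPM in CD8 T cells. NK-like cells gave 320 CPM (13 UMIs from 17 cells) and 611 CPM (30 UMIs from 21 cells). Within CD8 T cells it was at 155 and 203 CPM in the Ifng/Havcr2 sub-cluster. It was at 73.1 and 18.0 CPM in the one named effector-like, whose CD8 effector list value was lower. Tnfrsf18 followed the order Treg-like (417 and 560 CPM), Tfh-like (224 and 281 CPM), and CD8 T (51.0 and 109 CPM), with no overlap between neighbors.

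Icos was broad, at 579 and 862 CPM in Treg-like cells, 318 and 624 CPM in Tfh-like cells, and 293 and 394 CPM in CD8 T cells, each range overlapping the next. Within each reaction the order was the same, with Treg-like cells highest and CD8 T cells lowest. The 34 B-like cells of reaction 1 gave 328 CPM (15 UMIs) and the 14 of reaction 2 gave 1 UMI. This class is not read as B cells, since Cd79a had a UMI in 3 of the 34 cells of reaction 1, where the B list summed to 1291 CPM, the macrophage list to 1619 CPM, and the T list to 744 CPM. Within CD8 T cells the Ifng/Havcr2 sub-cluster held 501 and 467 CPM of Icos. The one named effector-like, whose CD8 effector list value was lower, held 146 and 341 CPM. Cd27 was at 94.2 and 144 CPM in Treg-like cells, 48.0 and 56.9 CPM in CD8 T cells, and 1 UMI in 80 and 0 UMIs in 58 Tfh-like cells. A count of 0 in that reaction allows up to 46.8 CPM by the floor of 3 counts.

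Treg-like cells held 3 of the 5 receptors higher than CD8 T cells by edgeR, with 7 of the 10 genes tested and 1.62% of all 2590 genes called higher. The log2 differences were 2.34 ± 0.29 for Tnfrsf9 (adjusted p = 1.36e-04), 3.32 ± 0.47 for Tnfrsf4 (5.12e-04), and 2.52 ± 0.37 for Tnfrsf18 (6.60e-04). Icos differed by 0.95 ± 0.32 (adjusted p = 0.18 by edgeR) and was called with the reaction as a block (0.96, adjusted p = 1.25e-04). Cd27 differed by 1.02 ± 0.51 (adjusted p = 0.49). The median over the 7 genes was 1.02, and of 25 pathway genes tested only Maf (2.85) and Ctla4 (1.97) were called, both higher. Ctla4 is on the Treg marker list that named this class, so its call was in part fixed by the naming.

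Tfh-like cells, compared with CD8 T cells in a contrast added after the data were seen, were called higher for 4 of 7 genes (2.2% of 2590 genes were called higher). These were Tnfsf8 (3.68 ± 0.40, edgeR adjusted p = 3.37e-05), Tnfrsf9 (2.10 ± 0.30, 4.43e-04), Tnfrsf4 (3.17 ± 0.48, 7.36e-04), and Tnfrsf18 (1.59 ± 0.41, 0.044), the last not called by DESeq2 (adjusted p = 0.059). Of 25 pathway genes, Tnfsf11 (RANK ligand, 2.33), Nfkb1 (1.95), and Maf (1.68) were among 4 higher and Tnf (-2.18) was the 1 lower.

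The 2 CD4 classes were set against each other directly, also in an added contrast, and 1 of 7 genes was called (1.62% of 2590 genes in either direction). Tnfsf8 was lower in Treg-like than in Tfh-like cells by -3.46 ± 0.50 on the log2 scale (edgeR adjusted p = 0.0010), at 40.4 and 71.8 CPM against 458 and 702 CPM. Cd27 was 4.15 ± 1.04 higher in Treg-like cells (adjusted p = 0.0503, and 0.0090 with the reaction as a block), and Tnfrsf18 was 0.93 ± 0.40 higher (0.41, and 0.042 with the block). Tnfrsf9 (0.25), Tnfrsf4 (0.15), and Icos (0.63) did not pass. Tnfsf11 (-3.05) and Nfkb1 (-1.57) were the pathway genes called, both lower in Treg-like cells. Cd70 was seen in Tfh-like cells at 37.4 CPM (4 UMIs) and 187 CPM (12 UMIs), against 0 and 28.7 CPM (2 UMIs) in Treg-like cells and 0 and 6.82 CPM (3 UMIs) in CD8 T cells, and it was too sparse to pass the filter. Treg-like and Tfh-like cells share 1 cluster when T-like cells are clustered at resolution 0.5 in place of 0.8, and Tnfsf8 was then called against CD8 T cells (3.16).

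Surface antibody counts were read in the same cells, scaled in the same way (CPM) to all antibody counts other than hashtags. The CD357 (GITR) antibody gave 5685 ± 17 CPM (SD, n = 2 reactions) in Treg-like cells, 4038 ± 77 in Tfh-like cells, 3479 ± 11 in CD8 T cells, 2867 ± 31 in macrophage-like cells, and 2805 ± 13 in fibroblast-like cells. The CD278 (ICOS) antibody gave 5262 ± 124, 3874 ± 63, 3195 ± 63, 2663 ± 26, and 2333 ± 50 in the same order. For both antibodies the order of the T cell classes was the order of mean Tnfrsf18 and Icos RNA. The Icos RNA ranges of neighboring classes overlapped, although both reactions gave this order. By edgeR no Icos difference between these classes was called without the reaction block. Fibroblast-like cells, which should lack both proteins, set the background, and Treg-like cells stood 2.03-fold above it for CD357 and 2.26-fold for CD278. The 9 isotype control antibodies of the panel reached 3441 and 3502 CPM in Treg-like cells and 3578 and 3430 CPM in CD8 T cells, and the CD8 T cell values of both antibodies lay near or below these levels.

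Between Treg-like and CD8 T cells, 2 of the 5 receptor antibodies were called by edgeR, where 13.9% of 122 antibodies were called higher. The log2 differences were 0.74 ± 0.04 for CD278 (adjusted p = 5.66e-05) and 0.73 ± 0.03 for CD357 (3.31e-05). The same 2 were called between Tfh-like and CD8 T cells (CD278 0.27, adjusted p = 0.0078, and CD357 0.21, 0.0083, with 4.92% of antibodies called higher) and between Treg-like and Tfh-like cells (0.47, 0.0015, and 0.52, 0.00060, with 6.56%). The CD134 (OX40) antibody ranged only from 46803 to 54574 CPM over all classes, CD137 (4-1BB) from 21282 to 24934, and CD27 from 3225 to 3617. Treg-like cells differed from CD8 T cells by -0.04 ± 0.02 for CD134, 0.06 ± 0.02 for CD137 (adjusted p = 0.082, and 0.042 with the reaction as a block), and 0.05 ± 0.05 for CD27, although Tnfrsf4 and Tnfrsf9 RNA differed by over 2 on the log2 scale. As a check of the panel, CD8a was higher in CD8 T cells (4159 ± 24) than in Treg-like cells (3161 ± 79), but CD25, a Treg surface marker, was not higher in Treg-like cells (1267 ± 18) than in CD8 T cells (1399 ± 363). CD4 was at 1870 ± 337 in Tfh-like cells, 1256 ± 101 in Treg-like cells, 1054 ± 15 in CD8 T cells, and 923 ± 22 in macrophage-like cells. In fibroblast-like cells it was at 907 in reaction 1 and 5533 in reaction 2 (3220 ± 3271).

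**Figure D2:**
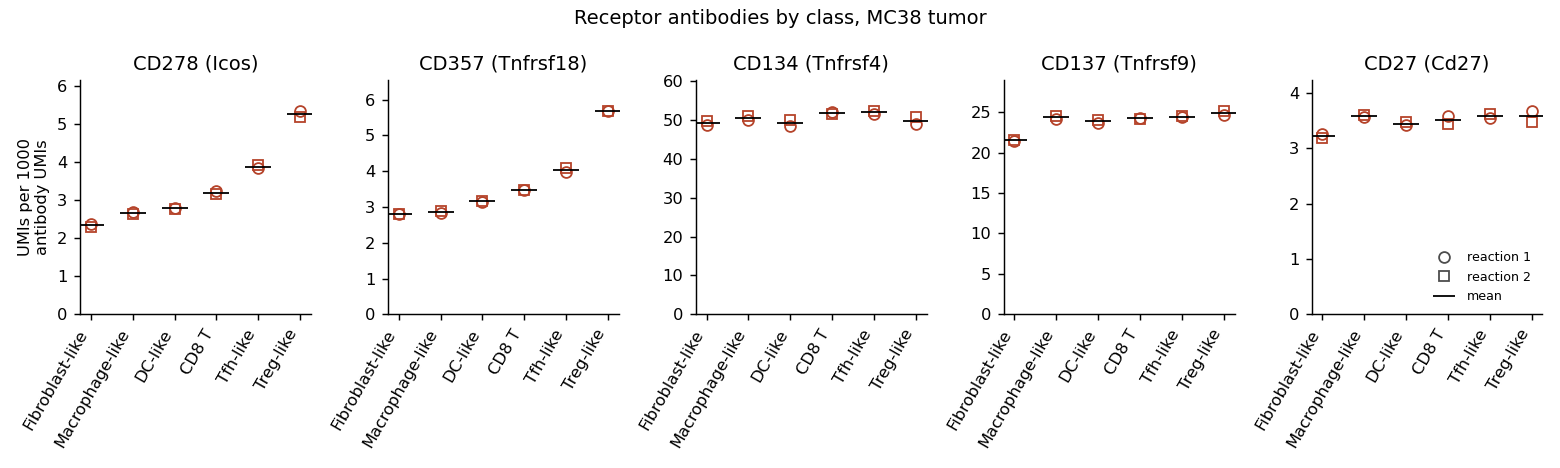
Antibody counts for the 5 receptors by MC38 cell class, 1 point per reaction, with a linear axis in counts per 1000 non-hashtag antibody counts, which is the CPM of the text divided by 1000. CD357 and CD278 are highest in Treg-like cells (mean CPM 5685 and 5262), whereas CD134, CD137, and CD27 are nearly level over all classes.

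On the ligand side, Tnfsf9 was highest in macrophage-like cells among the named classes of MC38 tumors. Macrophage-like cells (6467 and 5442) held it at 493 and 661 CPM (10679 and 13927 UMIs), with a UMI in 46.3% and 51.5% of cells. With macrophages taken by a marker gate and no upper gene limit, a limit that removes 18737 and 13796 MC38 barcodes, the mean went from 577 to 169 CPM, and that of DC-like cells from 205 to 30.7 CPM by the DC gate. Fibroblast-like cells held 64.3 and 50.8 CPM, CD8 T cells 61.5 and 66.0 CPM, Tfh-like cells 112 and 62.4 CPM, Treg-like cells 80.8 and 86.2 CPM, and B-like cells 0. The ratio of Tnfsf9 to C1qa UMIs was 0.146 and 0.148 in macrophage-like cells, 0.186 and 0.150 in fibroblast-like cells, and 0.308 and 0.549 in T-like cells. The fibroblast-like ratios lay near the macrophage ratio and the T-like ratios above it. Within macrophage-like cells, cluster 3 (led by Mmp12, Hmox1, and Arg1) held 701 and 1007 CPM, cluster 4 (C1q genes) 419 and 538 CPM, and cluster 1 438 and 471 CPM.

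DC-like cells (127 and 108) held Tnfsf9 at 193 and 217 CPM. A sub-cluster that also carried macrophage markers (34 and 20 cells, 552 and 498 CPM) gave 71 of the 82 Tnfsf9 UMIs of DC-like cells in reaction 1 and 42 of 84 in reaction 2. These markers were raised relative to other DC-like cells. The macrophage list summed to 1393 and 1886 CPM in it, against 21883 and 27519 CPM in macrophage-like cells. Its ratio of Tnfsf9 to C1qa UMIs was 2.73 and 0.955, and the part of macrophage RNA in its Tnfsf9 was not tested. The cDC1-like sub-cluster, which carried the plasmacytoid DC list at a mean log2 ratio of 2.20 beside the cDC1 list at 2.38 and had the plasmacytoid marker Siglech as its first gene, held 21.3 and 37.0 CPM, and mature DC-like cells (15 in each reaction) 1 and 7 UMIs. Icosl was highest in DC-like cells at 49.4 and 38.7 CPM, with 16.7 and 16.3 CPM in macrophage-like cells, 2.99 and 4.39 CPM in fibroblast-like cells, and no UMI in Treg-like cells. Within macrophage-like cells Icosl was lowest in cluster 3 (9.20 and 9.12 CPM), where Tnfsf9 was highest, and was at 18.4 and 18.2 CPM in cluster 4 and 27.1 and 41.1 CPM in cluster 1. Cluster 1 also carried the list of cDC1 markers, at a mean log2 ratio to other cells of 0.81 against 0.64 for the macrophage list, although only 2 cDC1 markers were raised in it.

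Tnfsf8 in macrophage-like cells was at 12.6 and 12.4 CPM, against 18.8 and 25.8 CPM in DC-like cells. Cd70 had 7 and 3 UMIs in all macrophage-like cells, and 1 and 5 UMIs in mature DC-like cells, equal to 19.7 and 96.5 CPM. Tnfsf4 stayed at 0.461 and 0.332 CPM in macrophage-like cells and 4.71 and 5.16 CPM (2 UMIs each) in DC-like cells, and totaled 60 UMIs in MC38 tumors. Tnfsf18, the partner of Tnfrsf18, totaled 13 UMIs, with 2 in each reaction in both fibroblast-like and macrophage-like cells and 0 in T-like and DC-like cells. Tnfrsf8, the partner of Tnfsf8, totaled 56 UMIs, with 19 and 12 in macrophage-like cells (0.876 and 0.570 CPM) and 3 and 4 in T-like cells (3.25 and 6.98 CPM).

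**Figure D3:**
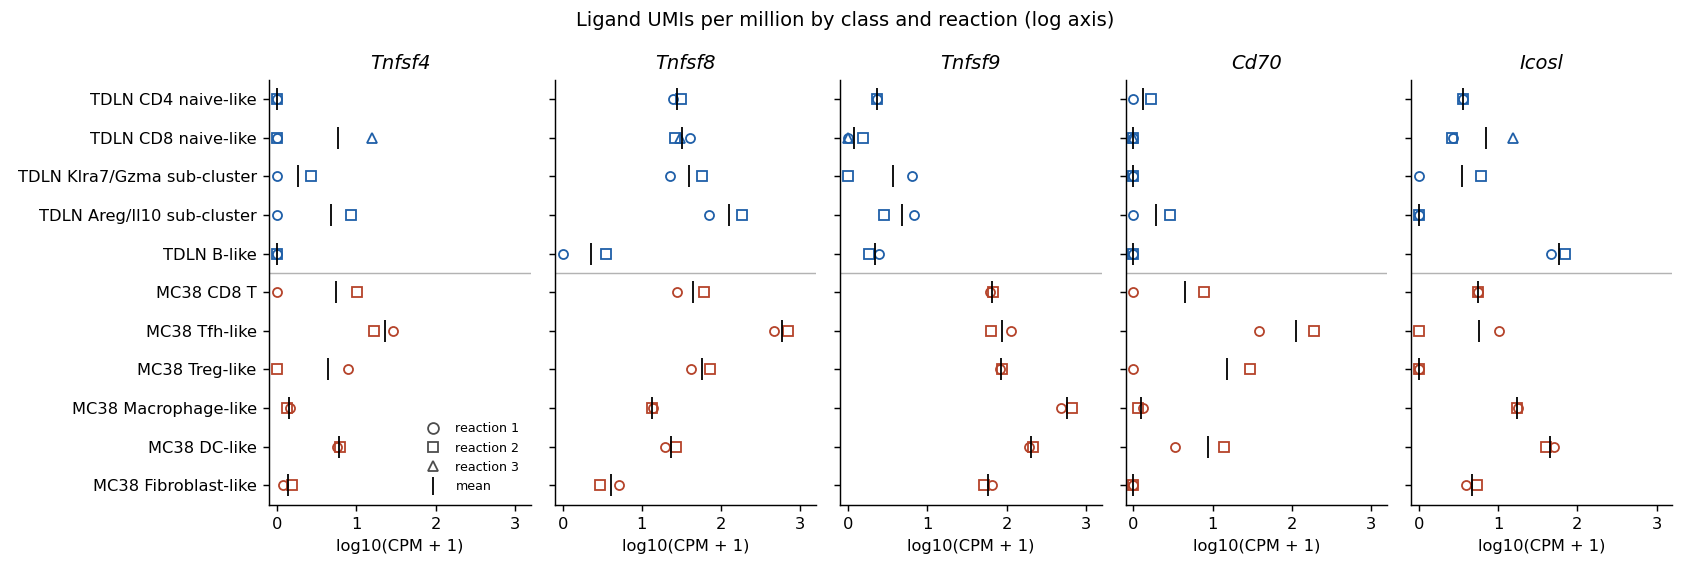
Ligand levels (CPM, log axis) by cell class, 1 point per reaction and a bar at the mean. Tnfsf9 is highest in macrophage-like cells of MC38 tumors (493 and 661 CPM) and near 2 CPM in TDLNs, Icosl is highest in TDLN B-like and MC38 DC-like cells, and Tnfsf8 in MC38 Tfh-like cells.

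Against macrophage-like cells, DC-like cells held 5 of the 9 genes tested higher and 1 lower by edgeR, where 6.74% of 10253 genes were called higher and 8% lower. Tnfsf9 was lower by -1.57 ± 0.24 (adjusted p = 1.53e-05), and by -2.72 without the sub-cluster with macrophage markers. Icosl was higher by 1.36 ± 0.34 (0.0052) and Cd70 by 4.76 ± 1.31 (0.013, 0.45 by DESeq2). Cd70 stood at a mean of 7.62 CPM in DC-like cells and totaled 43 UMIs over all MC38 barcodes that passed, so its call rests on few UMIs. The receptors Tnfrsf18 (3.80 ± 0.41, 1.40e-07), Tnfrsf4 (2.83 ± 0.51, 1.75e-04), and Icos (2.03 ± 0.57, 0.015) were higher as well. Tnfrsf18 was at 44.7 and 43.8 CPM in DC-like cells against 3.04 and 2.99 CPM, and Tnfrsf4 at 21.2 and 25.8 CPM against 3.14 and 3.13 CPM, with 98.7 and 154 CPM (5 and 8 UMIs) in mature DC-like cells.

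The 8-gene T list summed to 73.0 and 126 CPM in DC-like cells and to 43.0 and 44.3 CPM in macrophage-like cells, and the part of such T cell RNA in the receptor differences was not tested. With DCs and macrophages taken by marker gates Icos turned to -5.75, and with the gates and no upper gene limit Icosl turned to -1.51 (adjusted p = 0.14). Of 47 pathway genes, 11 were higher in DC-like cells, among them Ltb (3.52) and the CD28 ligand Cd80 (2.52), and 9 were lower, among them Maf (-4.01) and Tnf (-2.72).

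T-like cells as a whole, compared with macrophage-like cells in an added contrast, were called different for all 9 genes tested by edgeR (36.7% of 10253 genes were called in either direction). All 5 receptors were higher in T-like cells, from Tnfrsf9 (2.80) to Icos (6.37), together with Tnfsf8 (2.64) and Cd70 (5.45, not called by DESeq2). The Cd70 call again rests on few UMIs. Tnfsf9 (-3.46 ± 0.26, adjusted p = 2.55e-11) and Icosl (-2.43 ± 0.50, 3.28e-04) were lower. Macrophage-like cells held Tnfrsf9 at 26.2 and 26.4 CPM, with 58.6 and 70.6 CPM in cluster 3, 14.5 and 10.2 CPM in cluster 4, and 19.9 and 18.5 CPM in cluster 1.

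**Figure D4:**
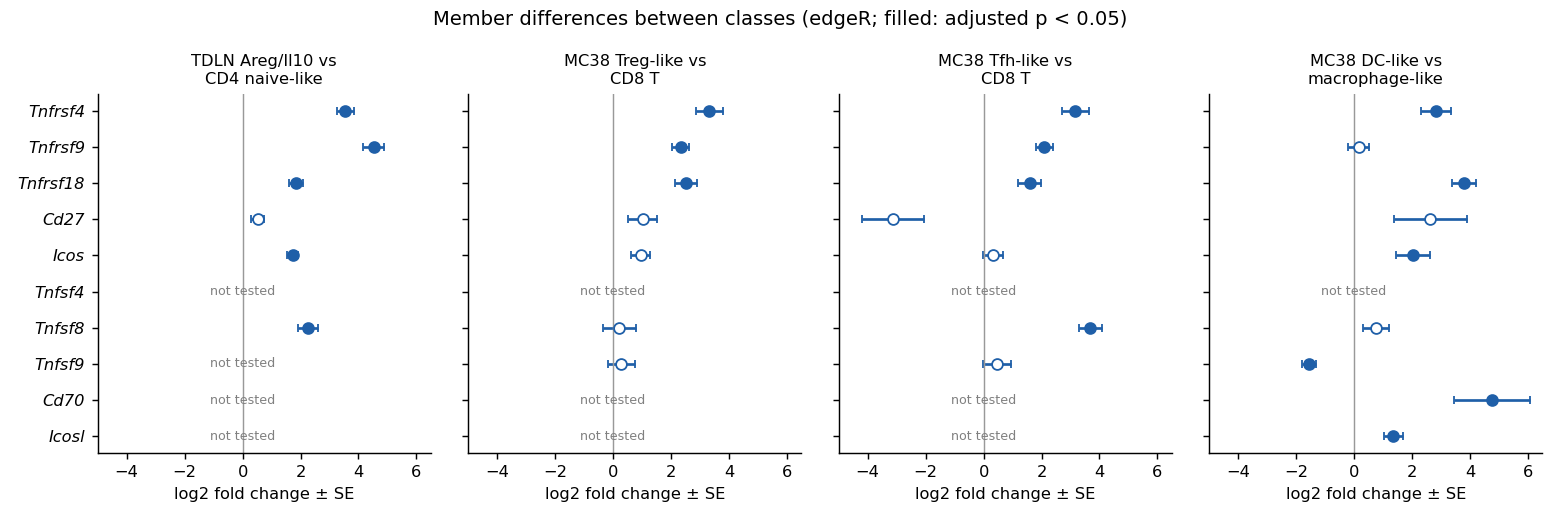
Log2 differences with SE from edgeR for the genes tested in each class comparison, with filled points where the adjusted p is under 0.05. Tnfrsf4, Tnfrsf9, and Tnfrsf18 lie to the right in both the TDLN Areg/Il10 and the MC38 Treg-like comparison, and Tnfsf9 lies to the left in DC-like against macrophage-like cells.

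Treatments could be compared in MC38 tumors for macrophage-like cells, where every treatment gave a sum of at least 198 cells in each reaction. Over all classes, the filters kept 5751 of 11448 and 4333 of 9740 isotype barcodes, and 1867 of 2033 and 1370 of 1569 CPI barcodes. They kept 439 of 2344 and 536 of 3183 barcodes under CPI + ABT-317, and 651 of 3299 and 307 of 2647 under isotype + ABT-317. The part of this unequal selection in the differences below was not tested. Tnfsf9 was at 525 and 663 CPM under isotype, 268 and 253 CPM under CPI, 455 and 471 CPM under CPI + ABT-317, and 499 and 783 CPM under isotype + ABT-317. Both CPI values were below all 6 others. Tnfrsf9 in the same cells was at 15.3 and 19.2 CPM under isotype, 46.3 and 47.0 CPM under CPI, 72.6 and 47.3 CPM under CPI + ABT-317, and 37.8 and 17.2 CPM under isotype + ABT-317, and the last of these overlapped isotype. Icosl was at 18.0 and 17.4 CPM, 6.94 CPM (3 UMIs) and 2.24 CPM (1 UMI), 13.3 and 12.2 CPM, and 14.4 and 24.6 CPM in the same order.

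Under CPI against isotype, 3 of the 4 genes tested were called by edgeR, and 20.1% of 8259 genes were. Tnfsf9 fell by 1.19 ± 0.23 on the log2 scale (adjusted p = 0.0017), Icosl fell by 1.95 ± 0.56 (0.024), and Tnfrsf9 rose by 1.43 ± 0.34 (0.0086). Tnfsf8 differed by -0.22 (0.85). With CPI + ABT-317 against CPI, Tnfsf9 was the 1 gene of 4 called, 0.83 ± 0.23 higher (adjusted p = 0.031, with 10.4% of 8259 genes called). Icosl (1.48, 0.18), Tnfsf8 (-1.77, 0.25), and Tnfrsf9 (0.33, 0.60) were not called. These contrasts share the CPI sums, so they are not independent.

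The makeup of the macrophage-like class differed by treatment. Cluster 3 made up 25% and 24.6% of macrophage-like cells under isotype, 90.9% and 91.4% under CPI, 38.0% and 39.1% under CPI + ABT-317, and 20.8% and 23.8% under isotype + ABT-317. Within cluster 3, an alternative added after the data were seen, Tnfsf9 was at 847 and 1108 CPM under isotype, 282 and 218 CPM under CPI, 657 and 767 CPM under CPI + ABT-317, and 613 and 1066 CPM under isotype + ABT-317. The Tnfsf9 difference was larger there than over all macrophage-like cells, at -2.09 ± 0.24 for CPI against isotype (edgeR adjusted p = 1.29e-05) and 1.61 ± 0.25 for CPI + ABT-317 against CPI (4.64e-04). Tnfrsf9 was at 38.7 and 58.2 CPM under isotype and 49.1 and 44.5 CPM under CPI within cluster 3, a difference of -0.18 ± 0.33 (adjusted p = 0.77). It was at 116 and 119 CPM there under CPI + ABT-317, 1.42 ± 0.34 above CPI (0.013). Icosl was at 12.2 and 10.5 CPM under isotype (34 and 33 UMIs) and 5.17 and 2.47 CPM under CPI (2 and 1 UMIs) within cluster 3, and it did not pass the low-count filter there.

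**Figure D5:**
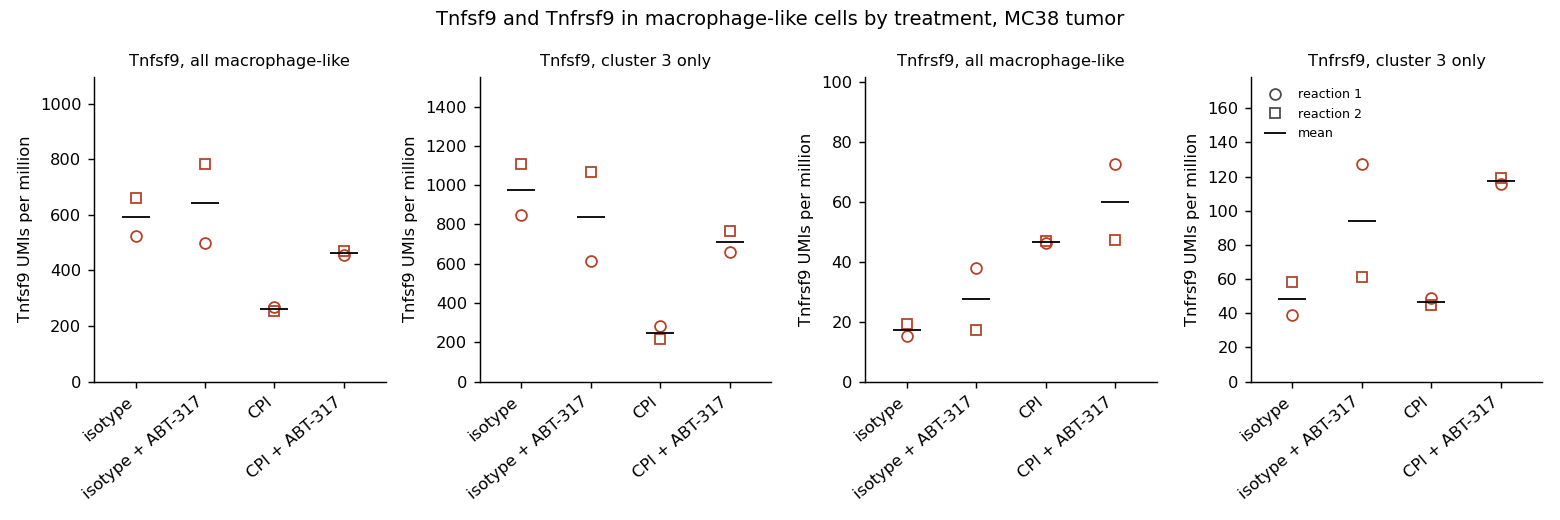
Tnfsf9 and Tnfrsf9 levels (CPM) in MC38 macrophage-like cells by treatment, for all clusters and for cluster 3 alone, 1 point per reaction. Tnfsf9 is lowest under CPI in both (268 and 253 CPM over all clusters), and the Tnfrsf9 gap between isotype and CPI over all clusters is not present within cluster 3.

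Other measures moved with CPI in these cells. The median UMIs per cell were 2972 and 3603 under isotype and 1860.5 and 1986 under CPI, C1qa was at 3507 and 4696 CPM against 1608 and 1693 CPM, and the T list summed to 6.80 and 6.32 CPM against 55.5 and 91.8 CPM. Under CPI + ABT-317 these were 3345 and 3990 UMIs, 3039 and 4183 CPM, and 8.18 and 2.87 CPM. C1qa within cluster 3 was at 2627 and 3423 CPM under isotype and 1506 and 1536 CPM under CPI. It was at 1587 and 2651 CPM there under CPI + ABT-317. The T list in cluster 3 summed to 1.08 and 2.86, 41.3 and 69.3, and 2.96 and 0 CPM in the same order. Without cells that held a UMI of the T list, Tnfsf9 was -1.16 (adjusted p = 0.0021 by edgeR), Tnfrsf9 1.38 (0.014), and Icosl -1.82 (0.034) for CPI against isotype, and Tnfsf9 was 0.77 (0.045) for CPI + ABT-317 against CPI. The part of depth in the differences was not tested. The Tnfrsf9 call was lost with no low-count filter (1.24), with marker gates (0.68), and with hashtags called by lead (0.86), and the Icosl call with DESeq2 (-1.95), with no low-count filter (-2.13), and with gates and no upper gene limit (-1.39). The pathway list gave 11 higher and 3 lower of 38 under CPI, where 11.5% of all 8259 genes tested were called higher and 8.65% lower, with Tnfsf13b (BAFF, -2.84), Traf5 (1.93), Bcl2l1 (-1.68), and Nfkb2 (1.30) among them. With CPI + ABT-317 against CPI, 3 were higher and 5 lower (4.73% and 5.64% of all genes), with Tnfsf13b at 2.98, Traf5 at -2.17, Bcl2l1 at 1.73, and Maf at -1.33.

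T-like cells were too few for most treatments, with 25 and 15 under isotype, 492 and 378 under CPI, 0 and 9 under CPI + ABT-317, and 0 and 1 under isotype + ABT-317. Another 199 and 88 T-like cells carried no hashtag or several and had no treatment, as did 6511 and 3136 of all barcodes that passed. These numbers depend on the hashtag rule, since taking only barcodes whose first hashtag led the next by 1 log unit gave 29 and 3 T-like cells under isotype, 97 and 55 under CPI, and 13 and 15 under CPI + ABT-317. The paper compared CD8 T cell gene expression between CPI and CPI + ABT-317 tumors. By its flow cytometry, CD8 T cell counts did not differ between these groups. The numbers here are therefore not read as T cell numbers of the tumors, and why they differ from the paper was not tested. Only CPI against isotype could be fitted, with 2 sums against 1, since the 15 isotype cells of reaction 2 were below the minimum of 20. Tnfrsf18 was at 584 and 1019 CPM under isotype and 112 and 139 CPM under CPI, Tnfrsf9 at 768 and 1079 against 204 and 224 CPM, and Tnfrsf4 at 614 and 599 against 150 and 262 CPM. The isotype values of all 3 receptors lay above the CPI values. The log2 difference for Tnfrsf18 was -1.89 ± 0.46 (edgeR adjusted p = 0.020), the 1 gene of 8 called, with 0.507% of 6900 genes called. The fit has 1 residual degree of freedom, which comes from the 2 CPI sums, and the lone isotype sum is assumed to vary like them, so this p does not measure the spread under isotype. Tnfrsf9 (-1.51 ± 0.44, adjusted p = 0.11) and Tnfrsf4 (-1.25, 0.31) were not called, and none of 42 pathway genes was.

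Treg-like cells were 72.0% and 40.0% of T-like cells under isotype and 8.54% and 7.41% under CPI, and Foxp3 was at 184 and 419 CPM against 32.4 and 27.4 CPM. A lower share of Treg-like cells and less receptor RNA per cell cannot be told apart at this number of cells. The Tnfrsf18 call was not made by DESeq2 (-1.94), with no low-count filter (-1.70), without TMM (-2.21), with hashtags called by lead (-0.74), or with NK-like and B-like cells included (-1.75).

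Over the 33 sums of class and reaction and the 12390 genes with enough UMIs, the genes whose levels were most like those of Tnfrsf4 by Pearson's r of log2 CPM were Ctla4 (0.88), Trat1 (0.84), and Cd4 (0.82). For Icos they included the T cell signaling genes Zap70 (0.95) and Cd247 (0.95). For Cd27 they were 4930417O13Rik (0.91), Trbv12-2 (0.91), and Trbv13-2 (0.90), and for Tnfsf9 they were Calm3 (0.92), AA467197 (0.89), and Cd300c2 (0.89). The sums share reactions and depth, and these values are a description.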

How the data were processed

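The authors deposited 1 matrix of UMI counts per reaction (3 TDLN, 2 MC38 tumor), with gene and antibody counts per barcode and no normalization. Per the file headers, Cell Ranger 7.1.0 (TDLN) and 8.0.1 (MC38) wrote them, whereas the submitters' processing notes name Cell Ranger 3.1.0 and GRCm38 (mm10). Filters were those of the study's methods. Cells were clustered in scanpy 1.11.5 (Leiden, resolution 0.5, and 0.5 (TDLN) and 0.8 (MC38) for T-like cells) without the 10 genes, and named from marker lists. No doublet caller was run. Hashtags of the deposited key were called with 2 normal components per hashtag (posterior 0.5), and barcodes with exactly 1 got its treatment.

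Counts were summed per class and reaction (at least 20 cells) and tested in edgeR 4.0.16 (TMM, filterByExpr, quasi-likelihood, R 4.3.3, Benjamini-Hochberg adjustment over all genes, threshold 0.05), with no block. DESeq2 1.42.0, no low-count filter, no TMM, a reaction block, marker gates, and leaving out each reaction were alternatives. Antibody sums were tested the same way over 122 antibodies without a low-count filter. Sums of 1 reaction come from the same library and deviated together (median r 0.17 for TDLN T cells, 0.33 for MC38 T cells, 0.09 for MC38 classes, 0.24 for macrophage-like cells by treatment), so the reaction pairs them. In simulated counts, edgeR recovered 84.5% of 200 genes changed 4-fold for the TDLN Areg/Il10 comparison (7279 genes) and 62.5% for DC-like against macrophage-like cells (10253 genes). It also called 10 and 2 unchanged genes there, and DESeq2 recovered 65.5% and 58.5%. The simulated sums were drawn independently with no reaction effect, so these rates do not describe sums that deviate together.

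CPM intervals are exact Poisson 95% intervals, and a count of 0 allows 3 counts. Both cover counting error only. The genes named are the 10 members, their 2 partners, the 4 pathway genes with the largest change among those called in a comparison, and the 3 genes most like a member. The Areg/Il10 and Klra7/Gzma sub-clusters stand where Treg-like and CD8 effector-like TDLN classes had been planned. The members and lists were chosen with earlier results of these data known, and the Tfh-like, T-like against macrophage-like, and antibody comparisons were added after the data were seen. One gene named by the likeness rule is not reported here.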

Additional observations from a re-analysis of the deposited data

Results flagged for a closer look

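Under CPI against isotype in MC38 tumors, the values of 3 receptors differed in opposite directions in T-like and macrophage-like cells in both reactions. For Tnfrsf18 the log2 ratio of CPM + 1 was -2.37 and -2.86 in T-like cells and 1.5 and 2.54 in macrophage-like cells, and the mean difference between the classes was -4.63. For Tnfrsf4 it was -2.03 and -1.19 against 2.26 and 3.09, a difference of -4.28. For Tnfrsf9 it was -1.90 and -2.27 against 1.53 and 1.25, a difference of -3.48. These differences between classes were not tested.

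Within each class only Tnfrsf18 in T-like cells and Tnfrsf9 in macrophage-like cells were called by edgeR. The Tnfrsf18 call rests on a lone isotype sum, so it does not measure the spread under isotype, and several alternatives lost it. Tnfrsf9 and Tnfrsf4 were not called in T-like cells, and in macrophage-like cells Tnfrsf18 (12 and 15 UMIs under isotype, 2 and 5 under CPI) and Tnfrsf4 (14 and 13 against 4 and 7 UMIs) did not pass the low-count filter. Within macrophage-like cluster 3 Tnfrsf9 differed by -0.18. The isotype T-like cells number 25 and 15, and the T list in macrophage-like cells summed to 6.80 and 6.32 CPM under isotype and 55.5 and 91.8 CPM under CPI.

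The ligands Tnfsf9 (0.89 and 6.12 in T-like cells, -0.97 and -1.39 in macrophage-like cells) and Icosl (2.97 and 1.71 against -1.26 and -2.51) were opposite with the signs exchanged. Isotype T-like cells held 1 and 0 UMIs of Tnfsf9 and 0 of Icosl, so no direction is read from these values in T-like cells.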

How the results depend on the processing

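Of 496 values for single genes and antibodies under the alternatives, 423 kept their direction and, where tested, their side of the threshold. Another 28 lost a call, 13 gained one, and 32 changed direction. Values with no adjusted p, such as those with an MC38 reaction left out, were counted among the 423 by direction alone. Of 96 counts and levels, 55 stayed within their limit, a ratio of 1.5 for counts and the SD over reactions for levels. A level with a reaction left out cannot move past that SD, so those values are no measure of stability. The cause of each change was not tested. The counts of genes called moved as follows, with the main count first. For the TDLN Areg/Il10 sub-cluster it was 486, with 187 by DESeq2, 931 with the reaction block, 5 with marker gates (with or without the upper gene limit), and 66 to 513 when a reaction was left out (66 without reaction 2, 225 without reaction 1). For Klra7/Gzma it was 96, with 47 by DESeq2, 259 with the block, and 23 to 95 when a reaction was left out (23 without reaction 2). Treg-like against CD8 T cells gave 67, with 101 without filter, 34 by DESeq2, and 225 with the block. DC-like against macrophage-like cells gave 1511, with 487 with gates and 719 with gates and no gene limit. T-like cells under CPI gave 35, with 2 by DESeq2, 2 without TMM, 18 with leading hashtags, and 9 with NK-like and B-like cells. Macrophage-like cells under CPI gave 1660, with 634 without filter, 2544 with gates, 2696 with gates and no gene limit, and 985 in cluster 3. With CPI + ABT-317 they gave 857, with 101 without filter, 1521 with the block, 1866 with gates, 3647 with gates and no limit, and 495 in cluster 3. Tfh-like against CD8 T cells gave 75, with 49 by DESeq2 and 195 with the block. Treg-like against Tfh-like cells gave 42, with 27 and 118, and for antibodies 8, with 16 and 18.

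With gates and no gene limit, Tnfsf9 went from 577 to 169 CPM in macrophage-like cells and from 205 to 30.7 CPM in DC-like cells (164 with the limit), and Icos in T-like cells from 409 to 81.3 CPM. Tnfrsf4 in the Areg/Il10 sub-cluster went from 377 to 181 CPM in both gates, and Icos from 881 to 451 and 464 CPM.

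Direction changed in these cases. In TDLNs, Tnfsf8 in the Areg/Il10 sub-cluster turned to -0.78 with gates and -0.85 with no gene limit. In the Klra7/Gzma comparison Icos turned to -0.014 without filter and Cd27 to 0.043 with the block, and with a reaction left out Icos ran from -0.31 to 0.15, Tnfsf8 from -0.83 to 1.12, Tnfrsf9 from -5.13 to 1.70, and Cd27 from -0.11 to 0.011. The lowest value of each was the one without reaction 2, and Cd27 was above 0 without reaction 3. In DC-like against macrophage-like cells, Icos turned to -5.75 with gates and -1.50 with no limit, Tnfsf8 to -1.61 and Icosl to -1.51 with no limit, and Tnfrsf9 to -0.17 without filter, -0.60 with no limit, and -0.18 without the sub-cluster with macrophage markers, and to between -0.085 (without reaction 2) and 0.59 with a reaction left out. In T-like cells under CPI, Icos turned to -0.10 without TMM and -0.47 without reaction 2, Cd27 to -0.00041 without TMM and -0.52 without reaction 2, and Cd70 to -1.85 without reaction 2. The reaction block left no residual degree of freedom there. The values under that setting (Icos -0.19, Cd27 -0.33, and Cd70 -0.023) are ratios of pooled counts in which no block was fitted. In macrophage-like cells under CPI, Tnfsf8 ran from -1.15 to 0.58 (without reaction 1) with a reaction left out and Tnfrsf9 turned to -0.18 in cluster 3. With CPI + ABT-317, Tnfsf8 turned to 1.38 with gates, 0.52 with no limit, and 0.27 without cells holding a T list UMI, and Tnfrsf9 to -0.34 with no limit and to between -0.014 (without reaction 1) and 0.62 with a reaction left out. The CD134 antibody in Tfh-like against CD8 T cells turned to 0.0027 without TMM.

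The reaction block changed no member call beyond those given with it in the results. Gates could not be applied to CD8 sub-clusters, nor to MC38 Tregs with or without the gene limit (under 20 cells), and CPI + ABT-317 against CPI could not be fitted in T-like cells. Leaving out an MC38 reaction gives values with no test, and leaving out TDLN reaction 1 or 2 leaves 1 sum for the Areg/Il10, Klra7/Gzma, and CD4 naive-like classes, which are assumed to vary like the 2 CD8 naive-like sums. Depth limits Tnfsf4, Cd70, Tnfrsf8, and Tnfsf18, whose values rest on few UMIs per sum. The 2500-gene limit removes 18737 and 13796 MC38 barcodes.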
